A study of Homo sapiens with 6 samples.

Results

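Genes of antigen presentation and immune recognition were examined in MDA-MB-468 cells after 10 days of nitric oxide. They were the 37 genes of a list, found by name among the 45019 rows of each table: the chains of the major histocompatibility complex (MHC) class I and class II molecules, the genes that cut, carry and load their peptides, the factors that switch them on, and the surface ligands of the PD-1 and NKG2D receptors. MDA-MB-468 is an established basal-like, triple-negative human breast cancer line known for its amplified EGFR. Of the 2 groups, the untreated one had 3 libraries. The other was given DETA/NO at 100 µM, from which nitric oxide is set free slowly, with fresh compound added 4 h after each replating, every 48 h. Both groups were of the same line in the same serum-containing medium, and, per the labels, the dishes of a replicate were pooled at each replating. It is not stated that untreated dishes were replated in the same way. Because the tables of the first and second DETA/NO replicate were identical, they entered as 1 sample, named the shared DETA/NO library from here on. This left 3 untreated against 2 treated libraries. Whether replicates were separate cultures from the start is not stated, so a p-value reflects the scatter among these libraries alone, which may be technical. The question behind the series was if transcription changes along with the inhibition of FTO, an RNA demethylase, that its submitters ascribe to nitric oxide.

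MHC class I molecules show peptides from inside the cell to CD8 T cells and to natural killer (NK) cells. A class I molecule is a heavy chain (HLA-B, HLA-C, HLA-E, HLA-F) bound to B2M. Its peptides are cut by proteasomes, carried into the endoplasmic reticulum by TAP1 and TAP2, trimmed by ERAP1 and ERAP2 and loaded with the help of tapasin (TAPBP). NLRC5 is the transactivator of class I genes and CIITA that of class II genes, and both act through the RFX complex and neighbouring factors on a shared set of promoter elements. Class II molecules are normally kept to professional antigen-presenting cells and can be induced by interferon gamma in others. Interferons raise many genes of both classes.

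Promoters of class I genes are shown first, because HLA-B, HLA-C and B2M rose under DETA/NO (HLA-F is set beside them and did not pass) and because NLRC5 and the RFX complex are known to act at such promoters. RefSeq starts (GRCh38.p14) were matched for 31 of the 37 genes, and not for HLA-E, HLA-DRA, CTSS, NLRC5, CIITA and PDCD1LG2. The window was the 250 bases before the start, read 5′ to 3′ on the strand of the gene. The motifs were searched on both strands, and the capitals below mark them. The Y box core, GATTGG, is bound by NF-Y. TGACG is a short site for CREB-type factors. The third, the core of the interferon-stimulated response element (ISRE), was searched as GAAA, any pair of bases, and GAAA again, so that runs of it can overlap.
HLA-B, chr6:31357180-31357429, minus strand: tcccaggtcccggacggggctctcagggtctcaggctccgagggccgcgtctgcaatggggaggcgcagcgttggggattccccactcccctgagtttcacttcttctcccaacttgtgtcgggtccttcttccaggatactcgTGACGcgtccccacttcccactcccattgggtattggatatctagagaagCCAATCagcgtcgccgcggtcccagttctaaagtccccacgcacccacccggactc
HLA-C, chr6:31272093-31272342, minus strand: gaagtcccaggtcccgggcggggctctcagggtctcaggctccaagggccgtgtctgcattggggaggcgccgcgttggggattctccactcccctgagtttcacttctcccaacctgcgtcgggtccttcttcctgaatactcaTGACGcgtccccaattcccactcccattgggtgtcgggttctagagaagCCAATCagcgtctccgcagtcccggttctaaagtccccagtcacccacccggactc
HLA-F, chr6:29723184-29723433, plus strand: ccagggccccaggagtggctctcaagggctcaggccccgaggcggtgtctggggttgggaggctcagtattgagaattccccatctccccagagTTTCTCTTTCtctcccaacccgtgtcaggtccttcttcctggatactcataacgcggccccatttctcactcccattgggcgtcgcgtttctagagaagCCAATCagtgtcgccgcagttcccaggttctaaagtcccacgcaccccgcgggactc
B2M, chr15:44711267-44711516, plus strand: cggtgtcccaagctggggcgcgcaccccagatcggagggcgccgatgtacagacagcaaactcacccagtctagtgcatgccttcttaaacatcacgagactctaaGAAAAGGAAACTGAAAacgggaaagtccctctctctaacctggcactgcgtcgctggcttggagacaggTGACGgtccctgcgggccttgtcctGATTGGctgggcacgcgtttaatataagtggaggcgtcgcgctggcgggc

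HLA-B and HLA-C were identical at 90.4% of the 250 bases in a global alignment, and HLA-B and HLA-F at 82%. In each of the 3 heavy-chain windows the Y box core lay on the opposite strand, 56 to 51 bases before the start in HLA-B and HLA-C and 57 to 52 in HLA-F. B2M had the Y box core at 50 to 45 bases on its own strand. TGACG lay at 106 to 102 bases in HLA-B, 105 to 101 in HLA-C and 75 to 71 in B2M. The ISRE core was found once in HLA-F (156 to 147 bases) and as an overlapping pair in B2M (144 to 135 and 138 to 129). Some genes have several RefSeq starts, and the 31 matched members had 41 windows. The Y box core was in 12 of these windows (29.3%), against 14.1% of all 35116 RefSeq windows of the same length. TGACG was in 15 of them (36.6%) against 21.2%, and the ISRE core in 10 (24.4%) against 3.02%. Counted by gene, with a hit in any window, the shares were 38.7% of members against 16.8% of 27305 genes for the Y box core, 41.9% against 24.9% for TGACG, and 32.3% against 3.71% for the ISRE core. A match is a description of letters and not evidence of a bound site. Only exact matches were counted, so windows without an ISRE core, such as those of HLA-B and HLA-C, can still hold a variant of it.

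Values below are normalized read counts, in which 1 read was worth 0.924 to 1.11 units depending on the library, and depth was 28897422 to 34637343 recovered reads. The tests are limma on log2(value + 1) over all 16409 genes whose mean value reached 10, with Benjamini-Hochberg adjustment over those genes. The log2 fold change (log2FC) on this scale understates that of low genes. In bulk RNA, fewer cells of a kind and less RNA per cell cannot be told apart. The label of the line was checked against 8 epithelial markers, which were all expressed, with means in untreated cells from 4445 for CDH1 to 222200 for EGFR. Of 14 leukocyte markers 10 lay under the filter, and CD2, CD68 and TYROBP were among those listed at 0 in every library. The summed leukocyte markers were 3185 to 3295 in untreated and 3018 and 3086 in DETA/NO libraries, most of it from CSF1R and CD14. Summed fibroblast markers were 578 to 635 and 850 and 840, nearly all COL1A1, and summed endothelial markers 325 to 363 and 499 and 558. Their part in the results below was not tested.

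In untreated cells the 5 genes of the class I molecule ranged from 136 normalized reads per kilobase for HLA-F to 2260 for HLA-E, while the class II group stayed at or below 53.2, the level of HLA-DMA. Levels between genes are compared per kilobase of exon, on the union of exons in GENCODE 29, since the sources used here do not give the authors' annotation. In the whole list HLA-E led, then B2M with 2160, TAPBP with 1676, PSME1 with 1338, HLA-C with 1224 and HLA-B with 1192. The ranges of HLA-C and HLA-B over the 3 libraries overlapped, and those of the other neighbours in this leading group did not. At the low end, CD74 had 6.06, CIITA 2.80, CD274 1.47 and HLA-DRA 0.496 reads per kilobase. Among the 31 members above 0, the ranges of 13 of the 30 pairs of neighbours in the order overlapped.

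**Figure D1:**
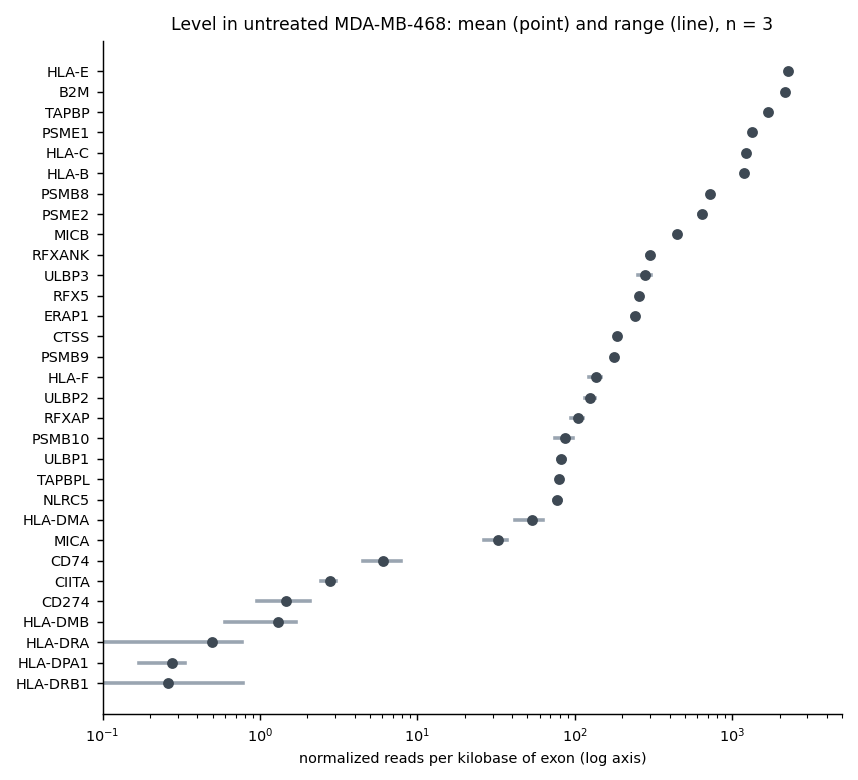
Normalized reads per kilobase of exon (log axis) of the 31 members above 0 in untreated cells, with the mean of 3 libraries as a point and their range as a line; a line that reaches the left edge starts at 0. HLA-E and B2M stand highest, and HLA-DRA, HLA-DPA1 and HLA-DRB1 lie below 1 read per kilobase.

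In all, 6 members were listed at 0 in every library: HLA-DPB1, TAP1, TAP2, ERAP2, PDCD1LG2 and IFI30. PSMA2 and PSMA3, core subunits of every proteasome that were picked out after their values were seen, were also listed at 0, so a 0 here says only how the gene is listed. Exons of other genes overlap 40.2% of the exons of IFI30, 32.3% of TAP2, 9.49% of TAP1 and 3.44% of HLA-DPB1 in GENCODE 29, and 0% of ERAP2 and PDCD1LG2. Of protein-coding genes with no overlap, 15.5% were listed at 0 in every library. The share was 12.2% with above 0 to 25% of exons overlapped, 36.2% with 25 to 75% and 45.6% with 75 to 100%. IFI30 and TAP2 fall in the 25 to 75% range, and TAP1 and HLA-DPB1 in the one below it. Another 5 members were above 0 but under the filter, namely HLA-DRA, HLA-DRB1, HLA-DPA1, HLA-DMB and CD274. The remaining 26 members were tested.

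Across these 26 genes, 10 rose under DETA/NO and 2 fell, and 14 did not pass. As shares these were 38.5% higher and 7.69% lower, beside 21.7% of all genes tested that were higher and 21.7% that were lower. The rises were small to moderate, and CD74 was the 1 member past 2-fold. The median log2 fold change of the tested members was 0.20, beside -0.00016 over all genes. Every DETA/NO value exceeded every untreated value in 13 of the 26 members (background 30.4%) and was below in 2 (background 30.8%).

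**Figure D2:**
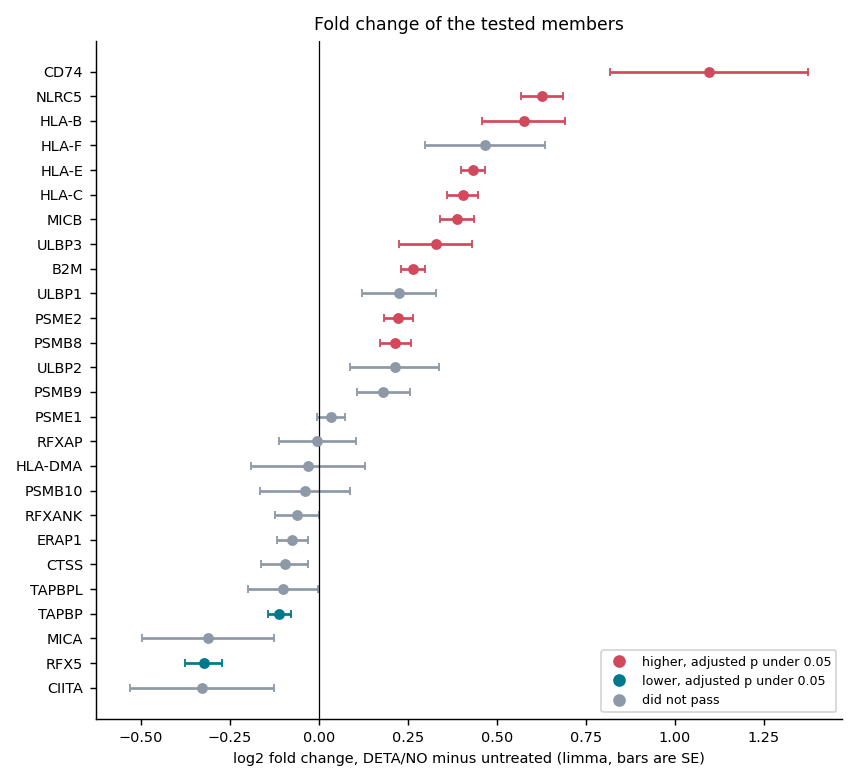
Log2 fold change of the 26 tested members, DETA/NO minus untreated, on the log2(value + 1) scale with limma's standard error as bars; red and teal points passed the adjusted p of 0.05. CD74 and NLRC5 have the highest values, and RFX5 and TAPBP are the 2 members that fell.

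Most genes of the class I molecule rose. These were HLA-B, HLA-C, HLA-E and B2M, while HLA-F, a non-classical heavy chain, had DETA/NO values above every untreated value but did not pass. HLA-E, the ligand of the inhibitory NK receptor CD94/NKG2A, had 6730, 6622 and 6820 normalized reads without treatment against 9462 in the shared DETA/NO library, with 8703 in library 3. The lower DETA/NO library thus stood above the highest untreated one by far more than the untreated libraries differed. HLA-E had a log2FC of 0.43 ± 0.034 (SE; adjusted p = 5.26e-12). HLA-E lies on chromosome 6 at 30489467 to 30494205 (GRCh38, GENCODE 29), with no exonic overlap.

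HLA-C, a classical heavy chain that also serves as ligand of the KIR receptors of NK cells, had 2979, 3146 and 3079 untreated reads and 4317 and 3817 under DETA/NO. The groups did not overlap, and the log2FC was 0.40 ± 0.043 (adjusted p = 2.95e-08). HLA-B, likewise a classical chain, had 3671, 3564 and 3674 untreated reads against 6071 and 4835. Its DETA/NO libraries were both high but far apart from each other. The log2FC of HLA-B was 0.58 ± 0.12 (adjusted p = 0.0286), and without untreated library 1, 2 or 3 it stayed at 0.58, 0.56 and 0.58 while the adjusted p became 0.0696, 0.104 and 0.109. HLA-C lies at 31268749 to 31272130 on chromosome 6, and the GENCODE 29 span of HLA-B (31269491 to 31357188) takes in a transcript that reaches into HLA-C.

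B2M, the light chain that every class I molecule needs, had 13107, 13424 and 12865 untreated reads and 16513 and 15077 under DETA/NO. Both treated libraries were again the higher ones. The log2FC of B2M, 0.27 ± 0.033 (adjusted p = 2.27e-07), was lower than the log2FC of each heavy chain in the list. B2M lies on chromosome 15 at 44711487 to 44718877. HLA-F ranged from 538 to 633 in untreated libraries and had 961 and 690.3 under DETA/NO. Its log2FC of 0.47 ± 0.17 did not pass (adjusted p = 0.0918), while edgeR gave 0.000335 and DESeq2 0.0472 on the recovered reads. Without the shared DETA/NO library it was 0.23 (adjusted p = 0.0406), and without DETA/NO library 3 it was 0.70 (adjusted p = 6.71e-09).

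Set against B2M, each classical heavy chain and HLA-E stood higher in both DETA/NO libraries, a ratio picked out after the values were seen and given without a test. HLA-B per B2M, per kilobase, was 0.552 ± 0.0207 (SD, n = 3) in untreated libraries and 0.733 and 0.639 under DETA/NO. HLA-C per B2M was 0.567 ± 0.0147 and then 0.634 and 0.614. HLA-E per B2M was 1.05 ± 0.0377 and then 1.17 and 1.18. The 3 ratios did not overlap between the groups.

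The class I heavy chains resemble each other, and reads in shared stretches are uncertain. Of all 50-base stretches in their GENCODE 29 transcripts, 5.38% in HLA-C, 4.34% in HLA-E, 2.72% in HLA-B and 0.977% in HLA-F also occur in transcripts of another gene. B2M shares none. Exons of other genes overlap 18.9% of the exons of HLA-B and 28.5% of those of HLA-F in GENCODE 29, and how the authors counted such reads is not given in the labels. Heavy-chain genes are also highly polymorphic, and the alleles of the line were not analysed here.

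The transactivators went in different directions. NLRC5, the class I transactivator, rose, RFX5 fell, and CIITA, RFXAP and RFXANK did not pass. NLRC5 had 925, 909 and 1007 normalized reads in untreated libraries and 1566 and 1367 under DETA/NO. Both treated libraries were well above the untreated range, with a log2FC of 0.63 ± 0.059 (adjusted p = 8.17e-10), the largest among the members after CD74. NLRC5 lies on chromosome 16 at 56989485 to 57083531 and has no exonic overlap.

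RFX5, the large subunit of the RFX complex that binds the X box of class I and class II promoters, had 1130, 1175 and 1189 untreated reads against 934 and 927. The DETA/NO libraries nearly coincided, below every untreated library, and the log2FC was -0.32 ± 0.053 (adjusted p = 6.76e-06). RFX5 lies on chromosome 1 at 151340640 to 151347357. Its partners RFXAP and RFXANK had log2FC values of -0.0038 and -0.06 (adjusted p = 0.983 and 0.465), with groups that overlapped. CIITA, with 23.4% of its exons overlapped by other genes, had 50.7, 60.8 and 62.8 untreated reads and 55.4 and 38.0 under DETA/NO. The groups overlapped, and CIITA had a log2FC of -0.33 ± 0.20 (adjusted p = 0.202).

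Of the class II group, CD74 rose from a low level and the other genes gave no call. CD74 encodes the invariant chain, which fills the groove of new class II molecules and also acts as a receptor for the cytokine MIF. It had 15, 19 and 27 recovered reads in the untreated libraries against 34 in the shared DETA/NO library and 48 in library 3, so that the groups did not overlap. CD74 and PSME2 were the 2 rising members whose value was higher in DETA/NO library 3 than in the shared library. For CD74 this rests on few reads, and the gap between the 2 libraries was not tested. The log2FC of CD74 was 1.10 ± 0.28 (adjusted p = 0.00172), on chromosome 5 at 150401637 to 150412929. PTPRC, the pan-leukocyte marker CD45, also rose, from 14.3, 8.83 and 16.6 to 34.4 and 33.2 (adjusted p = 0.000984). Per kilobase of exon the untreated level of PTPRC was 1.45, against 6.06 for CD74. The more abundant CSF1R, a receptor of the monocyte lineage, rose from 2248, 2307 and 2266 to 2571 and 2568 (adjusted p = 0.000425). CD14, a monocyte marker, fell from 909, 963 and 945 to 390 and 456 (adjusted p = 4.26e-15). Their part in the CD74 result was not tested.

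HLA-DRA, the invariant alpha chain of HLA-DR, had 0, 1, 1, 1 and 1 recovered reads in untreated libraries 1, 2 and 3, the shared DETA/NO library and DETA/NO library 3. HLA-DRB1 and HLA-DPA1 had 0 to 2 reads in any library. HLA-DMA and HLA-DMB, which form the exchange factor HLA-DM, were at 105 to 159 and 2.77 to 7.85 normalized reads in untreated libraries. Under DETA/NO HLA-DMA had 113 and 150.03 and HLA-DMB 5.54 and 8.55, so that the groups overlapped in each. HLA-DMA had a log2FC of -0.03 (adjusted p = 0.905). At this depth no change of HLA-DRA, HLA-DRB1 or HLA-DPA1 was detectable. CTSS, the cathepsin that degrades the invariant chain, ranged from 773 to 795 and had 792 and 673 under DETA/NO (adjusted p = 0.254), but without the shared DETA/NO library its adjusted p was 0.0277 with a log2FC of -0.21.

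**Figure D3:**
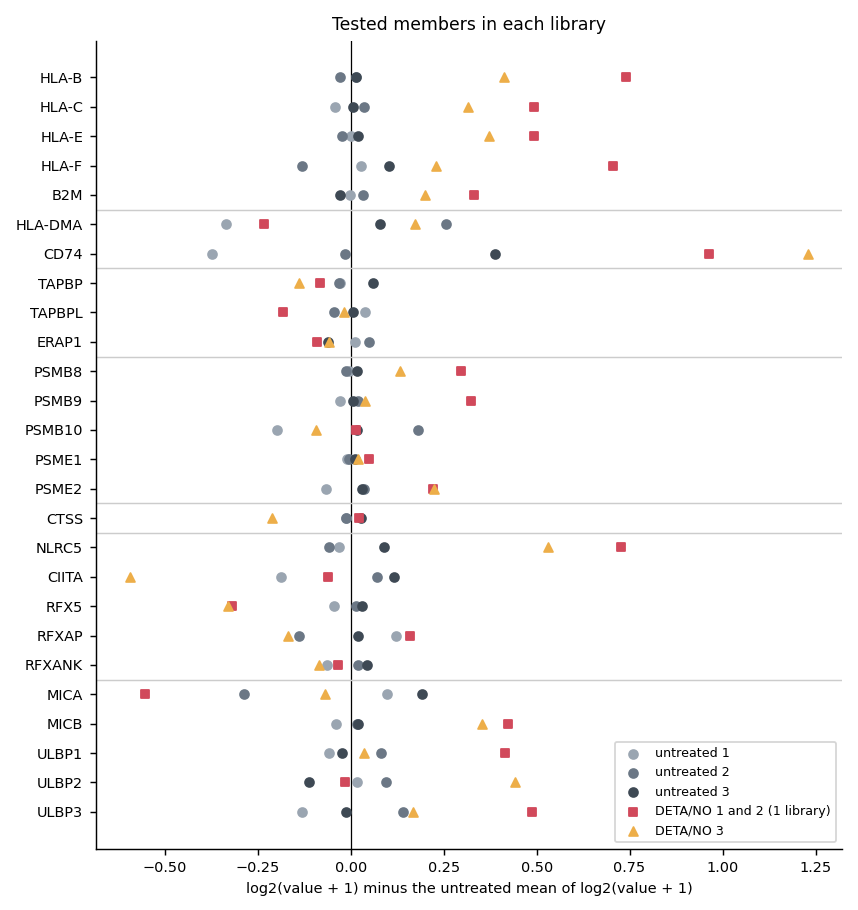
Each tested member in each library, as log2(value + 1) minus the untreated mean of the same quantity; circles are untreated libraries, the square is the DETA/NO library shared by replicates 1 and 2, and the triangle is DETA/NO library 3. In the 5 genes of the class I molecule at the top, both DETA/NO points lie right of every untreated point, with the square farther out.

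Peptide supply was uneven. PSMB8 and PSME2 rose, and PSMB9, PSMB10 and PSME1 did not pass. PSMB8, a catalytic subunit of the immunoproteasome, ranged from 2142 to 2188 in untreated libraries and had 2658 and 2371 under DETA/NO (log2FC 0.21 ± 0.044, adjusted p = 0.000175). Leaving out the shared DETA/NO library gave PSMB8 a log2FC of 0.13 (adjusted p = 0.0421). PSMB9, encoded next to TAP1, ranged from 530 to 548 and had 677 and 556. The DETA/NO values of PSMB9 were above the untreated range, but 1 only just, and the adjusted p was 0.0506. Without the shared DETA/NO library PSMB9 had a log2FC of 0.04 (adjusted p = 0.781), and without DETA/NO library 3 of 0.32 (adjusted p = 0.00245). PSMB10, the third catalytic subunit, had a log2FC of -0.04 (adjusted p = 0.836). Exons of PSMB8-AS1, an antisense gene, and PSMB9 cover 20.6% of the exons of PSMB8, and another gene covers 34.8% of those of PSMB10.

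The constitutive subunits that these replace also stood higher. PSMB5, PSMB6 and PSMB7 had log2FC values of 0.16, 0.16 and 0.16 (adjusted p = 0.00516, 0.0153 and 0.000497). PSMB5 did not pass if DETA/NO library 3 was left out (log2FC 0.12). PSMB6 did not pass without untreated library 1 (log2FC 0.12, adjusted p = 0.0911) or without the shared DETA/NO library (log2FC 0.12). The ratio of PSMB8 to PSMB5, per kilobase, was 0.717 ± 0.0234 (SD, n = 3) in untreated and 0.810 and 0.686 in DETA/NO libraries. That of PSMB9 to PSMB6 was 0.216 ± 0.00682 and then 0.237 and 0.203, and that of PSMB10 to PSMB7 was 0.0488 ± 0.00738 and then 0.0443 and 0.0400. In the first 2 pairs the DETA/NO libraries fell on either side of the untreated range, and no ratio separated the groups. These ratios were not tested. Of the wider list of 14 tested core subunits and activators, 7 rose and 0 fell by limma (9 and 0 at an unadjusted p under 0.05, 7 and 0 by edgeR, 4 and 0 by DESeq2, 2 and 0 by limma without its trend and robust options, 6 and 1 with no filter), and the rising count was 4 if DETA/NO library 3 or untreated library 1 was left out. In the main fit 21.7% of all genes tested were higher and 21.7% lower. The share higher was 21.8% by edgeR, 17.0% by DESeq2, 13.8% by limma without its trend and robust options and 14.4% with no filter. PSME3, the nuclear activator PA28 gamma, led the wider list with a log2FC of 0.21 (adjusted p = 5.22e-06).

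PSME1 and PSME2 are the alpha and beta subunits of the activator PA28. PSME2 ranged from 2199 to 2359 in untreated libraries and had 2685 and 2691 under DETA/NO, a log2FC of 0.22 ± 0.041 (adjusted p = 3.64e-05). The DETA/NO libraries agreed closely and stood above every untreated library. PSME1 ranged from 2368 to 2405 and had 2467 and 2416 (adjusted p = 0.510). The ratio of PSME2 to PSME1, per kilobase, was 0.480 ± 0.0167 and then 0.541 and 0.554.

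**Figure D4:**
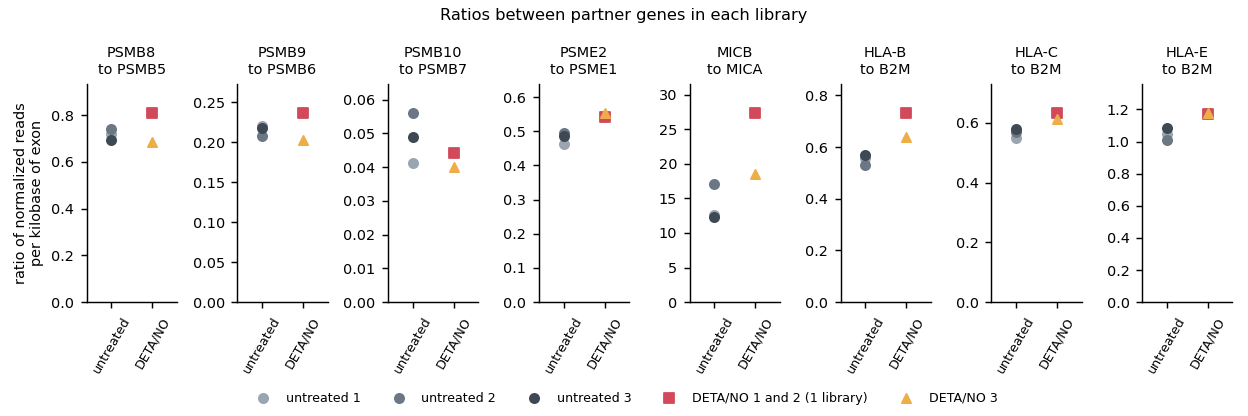
Ratios between partner genes in each library, from normalized reads per kilobase of exon, with untreated libraries left and DETA/NO libraries right in each panel and axes that start at 0. The DETA/NO points straddle the untreated ones for PSMB8 to PSMB5 and PSMB9 to PSMB6, and lie above them for PSME2 to PSME1, MICB to MICA and the heavy chains to B2M.

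Of the 6 genes of peptide transport, loading and trimming, 3 were tested (TAPBP, ERAP1 and TAPBPL), of which 1 fell. TAP1, TAP2 and ERAP2 were listed at 0. TAPBP, tapasin, which bridges the class I molecule and TAP, ranged from 8294 to 8833 and had 8001 and 7694 under DETA/NO. Both DETA/NO values were below the untreated range by a small amount, with a log2FC of -0.11 ± 0.033 (adjusted p = 0.00701), and without DETA/NO library 3 the adjusted p was 0.117. ERAP1, the aminopeptidase that trims class I peptides, had 1919, 1970 and 1825 untreated reads and 1788 and 1828 under DETA/NO. These groups overlapped (log2FC -0.07 ± 0.044, adjusted p = 0.180), and without untreated library 3 the adjusted p was 0.0494. TAPBPL, a relative of tapasin that edits peptides outside the TAP complex, ranged from 246 to 261 and had 224 and 251 (adjusted p = 0.441).

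Promoters of PSME2 and TAPBP are shown because both hold the ISRE core close to the start, once in PSME2 and as an overlapping pair in TAPBP, while their transcripts went in opposite directions. Capitals mark the motif, and the windows are as before.
PSME2, chr14:24146611-24146860, minus strand: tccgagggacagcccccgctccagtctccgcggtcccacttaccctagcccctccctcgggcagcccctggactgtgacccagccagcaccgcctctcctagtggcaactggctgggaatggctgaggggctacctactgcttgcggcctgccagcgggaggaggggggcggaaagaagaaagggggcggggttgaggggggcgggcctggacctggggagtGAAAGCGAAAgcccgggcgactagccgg
TAPBP, chr6:33314079-33314328, minus strand: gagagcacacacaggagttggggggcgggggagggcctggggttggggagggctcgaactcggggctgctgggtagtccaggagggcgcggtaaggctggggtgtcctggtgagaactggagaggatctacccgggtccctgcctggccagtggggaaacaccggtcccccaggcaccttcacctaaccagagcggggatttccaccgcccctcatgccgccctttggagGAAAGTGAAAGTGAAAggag
The core lay 28 to 19 bases before the start in PSME2, and 20 to 11 and 14 to 5 bases before it in TAPBP. Of the 10 members with an ISRE core in any window, 2 rose, 2 fell, 2 did not pass and 4 were not tested. These are few genes, and 21.7% of all genes tested were called in each direction.

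Ligands of NKG2D, an activating receptor of NK cells and T cells, were split. MICB and ULBP3 rose, and MICA, ULBP1 and ULBP2 did not pass. MICB had 1213, 1262 and 1263 normalized reads in untreated libraries and 1671 and 1591 under DETA/NO. Its groups stood well apart, with a log2FC of 0.39 ± 0.048 (adjusted p = 6.08e-08). ULBP3, a GPI-anchored ligand that shares 12.4% of its 50-base stretches with other genes, had 249, 301 and 271 untreated reads and 383 and 307 under DETA/NO. The lower DETA/NO value of ULBP3 barely passed the highest untreated one, and the log2FC was 0.33 ± 0.10 (adjusted p = 0.00969). Without the shared DETA/NO library it was 0.17 (adjusted p = 0.307), and without untreated library 1 the adjusted p was 0.0647.

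MICA, the closest relative of MICB, ranged from 62.8 to 87.8 in untreated libraries and had 52.1 and 73.1 (log2FC -0.31 ± 0.19, adjusted p = 0.184), and without DETA/NO library 3 it had -0.55 (adjusted p = 0.0492). The ratio of MICB to MICA, per kilobase, was 14.0 ± 2.72 (SD, n = 3) in untreated and 27.4 and 18.6 in DETA/NO libraries. Their promoters are printed because the windows were identical at 84% of 250 bases and held the same single motif, the Y box core in capitals.
MICB, chr6:31497895-31498144, plus strand: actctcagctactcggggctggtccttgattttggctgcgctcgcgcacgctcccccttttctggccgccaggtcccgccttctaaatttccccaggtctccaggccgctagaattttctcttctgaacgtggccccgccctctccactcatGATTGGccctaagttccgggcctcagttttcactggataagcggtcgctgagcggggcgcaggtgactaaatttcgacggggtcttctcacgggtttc
MICA, chr6:31403345-31403594, plus strand: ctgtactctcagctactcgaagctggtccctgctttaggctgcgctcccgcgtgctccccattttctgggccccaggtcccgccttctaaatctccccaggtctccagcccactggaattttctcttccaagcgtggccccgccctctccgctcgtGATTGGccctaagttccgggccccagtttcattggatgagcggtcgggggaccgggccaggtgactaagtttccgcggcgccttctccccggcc
The core lay 98 to 93 bases before the start in MICB and 94 to 89 in MICA. MICB lies on chromosome 6 at 31494881 to 31511124 and MICA at 31399784 to 31415315. The 50-base stretches that each shares with other genes were 2.86% in MICB and 2.43% in MICA.

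ULBP1 ranged from 247 to 272 in untreated libraries and had 342 and 263 under DETA/NO, and ULBP2 ranged from 156 to 181 and had 167 and 229.8. In each gene 1 DETA/NO library was high and the other within the untreated range, the shared library in ULBP1 and library 3 in ULBP2. The adjusted p were 0.0797 and 0.175. Without DETA/NO library 3 ULBP1 had 0.00477, and without the shared library ULBP2 had 0.0130. RAET1L, a related ligand outside the member list, rose by 0.82 on the log2 scale (adjusted p = 0.000736). ULBP2 shares 32.2% of its 50-base stretches with other genes, RAET1L first among them, and reads could be split between these genes.

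The PD-1 ligand CD274 (PD-L1) was barely expressed. It had 9, 4 and 6 recovered reads in untreated libraries, 6 in the shared DETA/NO library, with 10 in library 3. The groups overlapped, and at this depth no difference was detectable. Fitted without a filter, CD274 had a log2FC of 0.41 ± 0.49 (adjusted p = 0.620). Of 13 tested genes among other NK and checkpoint ligands, 3 rose and 4 fell, beside the 21.7% of all genes called in each direction. VTCN1 (B7-H4), an inhibitory ligand of the B7 family, went from 16703, 17216 and 17230 to 10583 and 11050 (log2FC -0.66, adjusted p = 5.13e-18), and CLEC2D, the ligand of the NK receptor CD161, from 770, 799 and 808 to 469.8 and 470.04 (-0.75, adjusted p = 2.59e-11). ICAM1, an adhesion ligand of T and NK cells, rose by 0.14 (adjusted p = 0.0228), but had adjusted p of 0.0537 to 0.0992 if untreated library 1, untreated library 2 or either DETA/NO library was left out. The count of rising ligands was 1 without untreated library 2 or the shared DETA/NO library.

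The size of the rise differed between the DETA/NO libraries. Of the 10 members that rose, 8 were higher in the shared DETA/NO library than in library 3. All 5 genes of the class I molecule were. Over all 16409 genes the share was 49.3%, but this mixes rising and falling genes. The share among all genes that rose was not computed, so the gap is not shown to be particular to these members. Over the untreated mean, the 5 class I genes had a median log2 difference of 0.49 in the shared library and 0.32 in library 3, and all genes had 0.0015 and 0.00085. Without the shared library the median log2 fold change of the 26 tested members was 0.086 in place of 0.20.

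The list is rich in genes of the MHC region. Of the 10 members that rose, 5 (HLA-B, HLA-C, HLA-E, MICB and PSMB8) lie between HLA-F and HLA-DPB1 on chromosome 6 (29722775 to 33087201), where 9 of the 26 tested members lie. The others lie on chromosomes 5, 14, 15 and 16 and, for ULBP3, elsewhere on chromosome 6. In that interval 85 genes that are no members were tested, of which 30 (35.3%) were higher and 10 (11.8%) lower, beside the 21.7% of all genes in each direction. Limma without the trend and robust options called 19 of them higher and 6 lower, beside 13.8% and 15.2% of all genes in that fit. Their median log2 fold change was 0.07.

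**Figure D5:**
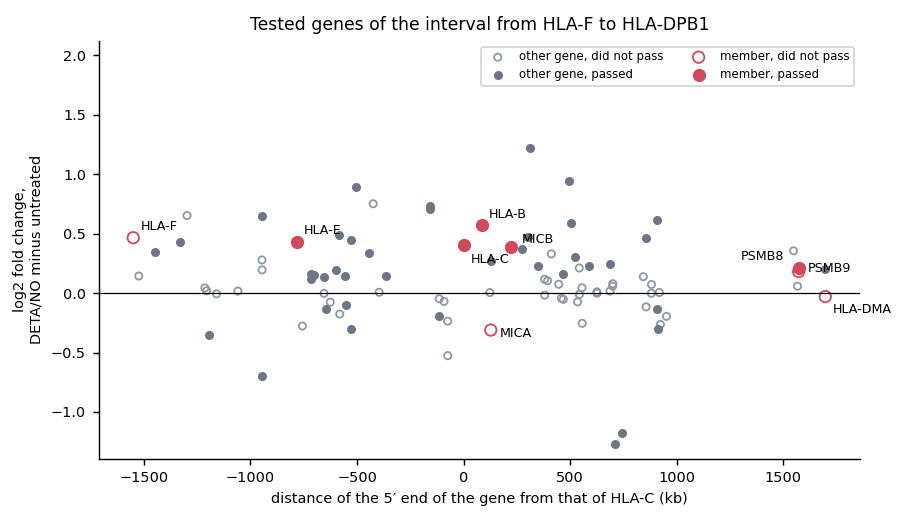
Log2 fold change of the 94 tested genes between HLA-F and HLA-DPB1, against the distance of the 5′ end of each gene from that of HLA-C in kilobases; red marks members, and filled marks passed the adjusted p of 0.05. Members that rose sit between 0.21 and 0.58, among neighbours that lie on both sides of 0.

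Other genes of the pathway were read from lists drawn up with the members. Of 11 tested interferon receptors and signalling genes, 3 rose and 2 fell, beside the same 21.7% of all genes in each direction. SOCS3, a feedback inhibitor of JAK signalling, rose by 0.51 (adjusted p = 3.41e-05), and IRF9, a DNA-binding factor of the type I interferon response, by 1.01 (adjusted p = 0.00643), though without the shared DETA/NO library IRF9 had 0.56 (adjusted p = 0.194). The receptor chains IFNAR1 and IFNGR1 fell, by 0.22 and 0.11 on the log2 scale (adjusted p = 5.16e-06 and 0.00620), and leaving out untreated library 1 gave IFNGR1 0.0813, so that 1 gene of the list fell. IRF1 and SOCS1 were listed at 0.

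Among 4 other tested MHC and MHC-like genes, HLA-G, a non-classical class I chain, rose by 0.34 (adjusted p = 0.0123, or 0.210 if the shared DETA/NO library was left out), and MR1, which presents microbial metabolites, by 0.20 (adjusted p = 0.00401, and 0.0520 without untreated library 2). HFE, a class I-like regulator of iron uptake, had a log2FC of -0.53 (adjusted p = 4.84e-09). Of 4 chaperones of class I assembly, PDIA3 fell by 0.09 (adjusted p = 0.0101, or 0.0923 if the shared DETA/NO library was left out), and CALR, CANX and HSPA5 did not pass. With TMM scaling or quantile normalization, or without DETA/NO library 3, 2 of these 4 fell, and without the shared one 1 rose in place of the fall. Of 4 tested endosomal proteases, CTSH fell by 0.41 (adjusted p = 7.32e-10) and CTSB rose by 0.11 (adjusted p = 0.00643), which for CTSB became 0.0703 and 0.0526 if untreated library 1 or DETA/NO library 3 was left out. Of 6 tested partners of the RFX and NF-Y complex, 3 rose, among them the acetyltransferase CREBBP by 0.22 (adjusted p = 1.21e-05) and CREB1 by 0.21 (adjusted p = 0.00249), and 0 fell by limma (2 at an unadjusted p under 0.05, 0 by edgeR and by DESeq2). With TMM scaling 3 rose and 1 fell, with quantile normalization 2 rose and 2 fell, and without untreated library 3 1 fell. For all the lists of this paragraph, the main fit called 21.7% of all genes tested in each direction.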

How the data were processed

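RNA-seq of total RNA covered 3 untreated and 3 DETA/NO samples of MDA-MB-468, grouped by their titles. Each deposited table holds 1 signal per gene, a read count that the authors divided by 1 factor per library. Per the submitters' processing notes, reads were handled on GRCh38 with TopHat2 2.1.1 among the tools, which also list featureCounts 2.0.3 of Subread, Bowtie2 2.5.0.0 and DESeq2 1.38.3 under R 4.2.2. Annotation, strand setting and read length are not given in the sources used here. Whole reads were recovered, since 100% of nonzero values per library were multiples of 1 step (tolerance 0.01). Among the row names, 27 had become dates (0.241% to 0.249% of reads) and stayed in the tests. The identical tables of the first and second DETA/NO replicate, whose column header names the same library, were averaged and counted once.

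The main test was limma 3.58.1 (R 4.3.3) on log2(value + 1), using eBayes with its trend and robust options, and genes whose mean reached 10. A Benjamini-Hochberg adjusted p under 0.05 made a call. Alternatives were edgeR 4.0.16 (quasi-likelihood test) and DESeq2 1.42.0 on recovered reads, other scalings, pseudocounts, filters and limma options, a fit blocked on replicate number, and fits that omit 1 library. Counting error has no interval of its own here. It is part of the spread between libraries, on which the precision given rests.

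The members and lists were chosen with earlier results of these data known, and the list got no set test. All 37 members are accounted for. Values in every library are given for called members with a log2 fold change of at least 0.3 in size and for CIITA, CD274, B2M, HLA-DRA, ERAP1 and RFX5. Of each other list, at most 2 genes a direction are named, by smallest adjusted p. Results for some genes of these lists are not reported here. Exons and overlaps are from GENCODE 29 and promoters from RefSeq (GRCh38.p14). Python 3.11.15 and pandas 2.3.3 were used for the other steps.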

Additional observations from a re-analysis of the deposited data

How the results depend on the processing

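Of the 10 members that rose, HLA-C, HLA-E, B2M, PSME2, NLRC5 and MICB passed under each of the 16 alternatives, CD74 under the 15 that tested it, and RFX5 stayed lower under all 16. HLA-B lost its call without any 1 untreated library, ULBP3 and PSMB8 in limma without the trend and robust options (adjusted p = 0.136 and 0.0642), ULBP3 also without untreated library 1 or the shared DETA/NO library, and TAPBP in that limma fit (adjusted p = 0.168) or without DETA/NO library 3; the cause was not tested. Between 8 and 13 members were higher over all alternatives. The share of all genes tested that were higher also moved between these fits, from 13.8% to 25.7%. Limma without the trend and robust options called 8 members higher and 1 lower, beside 13.8% and 15.2% of all genes. Leaving out 1 library gave a median log2 fold change of 0.086 to 0.20.

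No called member changed sign. Among uncalled members, leaving out 1 untreated library or DETA/NO library 3 gave log2 fold changes of -0.074 to 0.16 for RFXAP, -0.23 to 0.099 for HLA-DMA, -0.14 to 0.052 for PSMB10, -0.10 to 0.022 for CTSS, and -0.014 to 0.26 for ULBP2. Leaving out the shared library gave -0.17, 0.17, -0.093, -0.21 and 0.44 for these 5 genes in the same order. RFXAP had 0.020 under quantile normalization. The replicate number was also used as a block. With the shared DETA/NO library paired with untreated library 1, 13 members were higher and 2 lower, beside 20.2% and 20.0% of all genes. In that fit RFXAP had -0.074, HLA-DMA 0.099 and PSMB10 0.052. Paired with untreated library 2 in that block, 10 were higher and 2 lower, beside 19.2% and 19.4% of all genes. There RFXAP, HLA-DMA and PSMB10 had 0.057, -0.20 and -0.14. Deviations from the group mean had r = 0.0293 and 0.00106 across genes for the shared library with untreated 1 and 2. For number 3 it was 0.0301. With 2 DETA/NO libraries these deviations mirror each other, so the r values are not separate checks and cannot decide pairing. The labels name no pairing, and the numbers were not taken as pairs. Without 1 DETA/NO library the lone one left is assumed to vary like the untreated group. Depth limits the 5 members above 0 but under the filter, which had at most 10 reads in any library.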
